A study of Mus musculus with 6 samples.

Results

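Interleukins are small secreted proteins by which immune cells, fibroblasts and other tissue cells signal to each other, and the genes described here are those of the interleukins, their receptors and their natural inhibitors. They were taken as all protein-coding genes whose symbol starts with Il followed by a digit, which gave 82 of the 21794 protein-coding genes in the tables. By role they were 37 ligands, 38 receptor chains, 6 antagonists and 1 enzyme, Il4i1. Of the 82 members, 41 had a mean of at least 0.5 CPM (estimated reads per 1000000, scaled for library composition) over the 6 libraries and were compared between groups.

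Poly-A RNA was sequenced from ventricle below the ligature at day 7 after infarction, in C57BL/6J mice 8 to 10 weeks old. Every mouse carried 1 copy of Postn-CreER, a recombinase that tamoxifen switches on and that the promoter of periostin drives, a marker of activated fibroblasts, and every mouse ate tamoxifen from surgery to collection. The control group (CTL, n = 3, genotype Postn CreER+/-; Runx1 WT) had unaltered Runx1 and the knockout group (RUNX1 FB-KO, n = 3, genotype Postn CreER+/-; Runx1 fl) had a Runx1 allele that the recombinase can delete. Runx1 encodes a DNA-binding transcription factor, and the comparison asks what its loss from periostin-expressing cells does to the infarct. The labels give CTL replicate 1 as female, CTL replicates 2 and 3 as male, RUNX1 FB-KO replicate 1 as male and RUNX1 FB-KO replicates 2 and 3 as female. The RNA is of whole tissue, in which only cells that express periostin are targeted, and fewer cells of a type and less RNA per cell cannot be told apart.

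Each library held 16598561 to 19987279 estimated reads, and RUNX1 FB-KO replicate 3 stood apart from its group. Runx1 was at 96.3, 86.9 and 85.5 CPM in CTL replicates 1, 2 and 3 against 17.5, 10.8 and 67.4 CPM in RUNX1 FB-KO replicates 1, 2 and 3. On the log2 scale its fold change was -1.48 (SE 0.63, edgeR adjusted p = 0.154) with all libraries and -2.61 (SE 0.22, edgeR adjusted p = 0.000142) without RUNX1 FB-KO replicate 3. Across the genes tested, the log2 CPM of that library correlated at 0.956 to 0.969 with the CTL libraries and at 0.924 and 0.913 with RUNX1 FB-KO replicates 1 and 2. The counts of calls, and the fold changes that the results turn on, are therefore given with and without it, and a plot gives both fold changes for every compared member. Because that library was singled out by its values in these same data, the p-values and counts without it are descriptive and do not stand as tests. Cell type markers also differed between the groups. The summed level of 12 cardiomyocyte markers was 13305 to 17174 CPM in CTL against 97264, 119797 and 34766 CPM in RUNX1 FB-KO replicates 1, 2 and 3, and that of 12 fibroblast markers was 33674 to 36810 CPM in CTL against 10271, 9163 and 29486 CPM in the knockout. The sum of 12 macrophage markers was 3172 to 5090 CPM in CTL against 1420, 1341 and 3234 CPM in the knockout. For T and NK cells the sum of 12 markers was 17.9 to 28.0 CPM in CTL against 6.80, 6.48 and 10.6 CPM in the knockout. The 9 neutrophil markers summed to 27.9 to 52.7 CPM in CTL against 7.59 to 28.0 CPM in the knockout, with Ly6g under 0.1 CPM on average. The 8 endothelial markers summed to 907 to 996 CPM in CTL and 997 to 1064 CPM in the knockout. The part of these shifts in the results below was not tested.

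Most interleukins act through receptors made of a specific chain and a chain shared by several cytokines. The IL-1 family signals through receptors with an intracellular domain like that of the Toll-like receptors, the adaptor MyD88 and NF-kB. The gamma chain, beta common, IL-6 and IL-10 families signal through Janus kinases and STAT factors, and the IL-17 receptors signal through the adaptor encoded by Traf3ip2. In the infarcted heart these signals are known for recruiting leukocytes, for switching macrophages between inflammation and repair, and for activating fibroblasts.

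The receptors were expressed at far higher levels than the ligands. In TPM (transcripts per 1000000, a unit corrected for transcript length by which genes can be ranked within a library), the receptor chains summed to 710, 632 and 656 in CTL replicates 1, 2 and 3 against 266, 297 and 518 in RUNX1 FB-KO replicates 1, 2 and 3. The ligands summed to 85.8, 116 and 115 TPM in CTL against 50.1, 50.1 and 79.3 TPM in the knockout, and the antagonists to 27.1, 21.4 and 13.2 TPM in CTL against 10.1, 9.62 and 18.2 TPM in the knockout. In every library the receptor sum was thus the highest, and the ligand sum lay above the antagonist sum. TPM is a share of each library's RNA, so these sums rank roles within a library and are not used to compare the groups.

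Most ligands were rare or not detected. Of the 37 ligands, 10 reached 0.5 CPM, 14 were below it and 13 had 0 reads in all 6 libraries, among them Il3, Il9, Il13, Il17a, Il21 and Il22, which are known as products of activated lymphocytes. The antagonist Il1f5 and the receptor Il1rapl2 were also at 0 in every library, which makes 15 such members. A count of 0 allows a level of up to 0.133 to 0.234 CPM (3 reads, the range over libraries), as far as counting error goes. Among the receptors 27 of 38 were compared, and among the antagonists 3 of 6. The member just inside the minimum was Il11, with a mean of 0.635 CPM, and the member just outside it was Il9r, with a mean of 0.490 CPM. Il9r encodes a receptor of mast cells and lymphocytes and was at 0.267, 0.535 and 2.09 CPM in CTL replicates 1, 2 and 3 against 0, 0 and 0.051 CPM in the knockout, so that CTL replicate 3 held most of its reads. The sum of 6 B cell markers was likewise highest in CTL replicate 3, at 5.55, 20.2 and 65.7 CPM in CTL against 3.53, 4.13 and 10.97 CPM in the knockout, and its part was not tested. Il11 was the single compared member with a mean of at least 0.5 CPM in 1 group only.

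**Figure D1:**
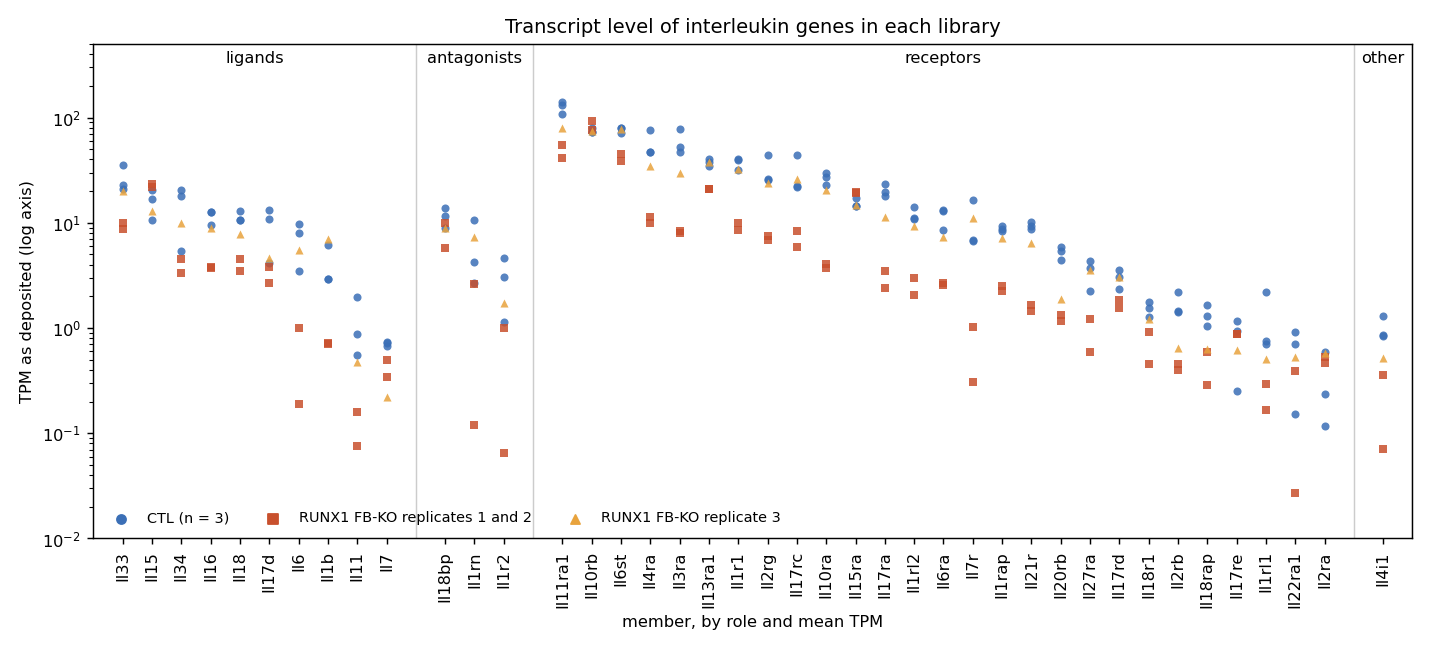
Level of the 41 compared members in each library, in TPM on a log axis, by role and then by mean TPM; circles are the 3 CTL libraries, squares are RUNX1 FB-KO replicates 1 and 2 and triangles are RUNX1 FB-KO replicate 3. Il11ra1, Il10rb and Il6st have the highest means, and Il33 is the highest ligand in every CTL library.

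Within CTL the order of the receptors by TPM began with Il11ra1, at 108, 131 and 141 TPM in replicates 1, 2 and 3. Il11ra1 encodes the chain that binds IL-11, a cytokine of fibroblasts. It lay above every other member in each CTL library, but 57.7% of its 31-base words are shared with Gm13305 and Il11ra2, near-identical genes to which at most 17 and 8 reads were assigned in any library, so the division of reads among the 3 is uncertain. Next came Il6st, the shared signalling chain gp130, at 79.8, 79.2 and 71.2 TPM, and Il10rb, the shared chain of the IL-10 family receptors, at 78.9, 73.7 and 72.6 TPM. These neighbours overlapped each other. Il3ra at 77.2, 52.7 and 47.1 TPM and Il4ra at 76.1, 47.1 and 47.5 TPM overlapped each other and lay below Il10rb in each CTL library, by the least in replicate 1. Il13ra1, a partner of Il4ra, was at 40.8, 38.1 and 35.0 TPM, and Il1r1, the signalling receptor of IL-1, at 39.1, 40.2 and 31.6 TPM.

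Among the ligands, Il33 came first in CTL at 22.9, 35.3 and 21.1 TPM. IL-33 is a nuclear cytokine released by damaged cells. By the mean over CTL Il15 followed, at 10.7, 16.8 and 20.5 TPM, although Il34 lay above it in replicate 2 at 17.9 TPM, and Il34, Il16, Il18 and Il17d were at 4.11 to 20.3 TPM in CTL and overlapped one another. In RUNX1 FB-KO replicates 1 and 2 the first ligand was Il15, at 23.6 and 21.8 TPM against 8.82 and 9.90 TPM for Il33. In RUNX1 FB-KO replicate 3 the order was that of CTL, with Il33 at 20.2 TPM and Il15 at 12.9 TPM.

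With all 6 libraries the number of members past the threshold was 0 by edgeR and 9 by DESeq2. By edgeR's quasi-likelihood test with Benjamini-Hochberg adjustment over 14237 genes, 0 of the 41 compared members and 0% of all genes had an adjusted p under 0.05. Each group held libraries of both sexes and so at least 2 mice, but the labels do not say that each library is a separate animal, and the p-values measure the spread between these libraries, part of which may be technical. At an unadjusted p under 0.05, 10 members were lower and 3 higher in the knockout, against 13.1% and 19.3% of all genes. DESeq2, fitted to the same genes, called 8 members lower (Il4ra, Il3ra, Il17rc, Il17ra, Il6ra, Il21r, Il2rb and Il18rap) and 1 higher (Il10rb). This compares with 6.08% and 16% of the 13674 genes to which it gave an adjusted p. It gave none to Il11, Il4i1 and Il22ra1. Of the 41 members, 33 had a negative log2 fold change (80.5%, against 54% of all genes) and 8 a positive one (against 46%), and the median was -0.59 against -0.06 over all genes tested.

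The groups did not overlap for 14 of the 41 members. In 12 (29.3%, against 18.8% of all genes) every knockout library lay below every CTL library: Il4ra, Il3ra, Il17rc, Il17ra, Il6ra, Il1rap, Il21r, Il2rb, Il18rap, Il18, Il11 and Il4i1. In 2 (4.88%, against 20.2% of all genes), Il10rb and Il2ra, every knockout library lay above, which for Il10rb depends on the scaling for library composition. The lower members were thus more frequent among the interleukin genes than among all genes and the higher members less frequent, as a description of these counts without a test. The 12 include Il11, which reached 0.5 CPM in CTL only and had 2 to 29 reads per library. They also include Il4i1, which had 2 to 26 reads per library and shares 80.5% of its 31-base words with other genes.

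Without RUNX1 FB-KO replicate 3, which leaves 2 knockout libraries, edgeR called 14 of the 41 compared members lower and 3 higher at an adjusted p under 0.05, against 22.5% and 25.1% of all genes. Below the minimum of 0.5 CPM, Il9r and Il12rb1 were also called lower in that fit (-7.16 and -2.30, edgeR adjusted p = 0.034 and 0.0485). Il9r had 0 reads in both knockout libraries left. The 14 were the receptors Il4ra, Il3ra, Il1r1, Il2rg, Il17rc, Il10ra, Il17ra, Il1rl2, Il6ra, Il7r, Il1rap, Il21r and Il18rap and the ligand Il6, and the 3 were Il10rb, Il15ra and Il15. The median of the 41 members was -0.83 in that fit, against -0.05 over the 14609 genes tested in it. With any other single library left out instead, 0 members were called. RUNX1 FB-KO replicate 3 lay within the CTL range for 22 members (against 44% of all genes), while RUNX1 FB-KO replicates 1 and 2 were both below every CTL library for 21 members and both above for 5 (against 36.6% and 32.6% of all genes). By role, 13 of 27 receptors were called lower and 2 higher without that library, 1 of 10 ligands was called lower and 1 higher, and 0 of 3 antagonists was called in either direction. The difference between roles was not tested.

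**Figure D2:**
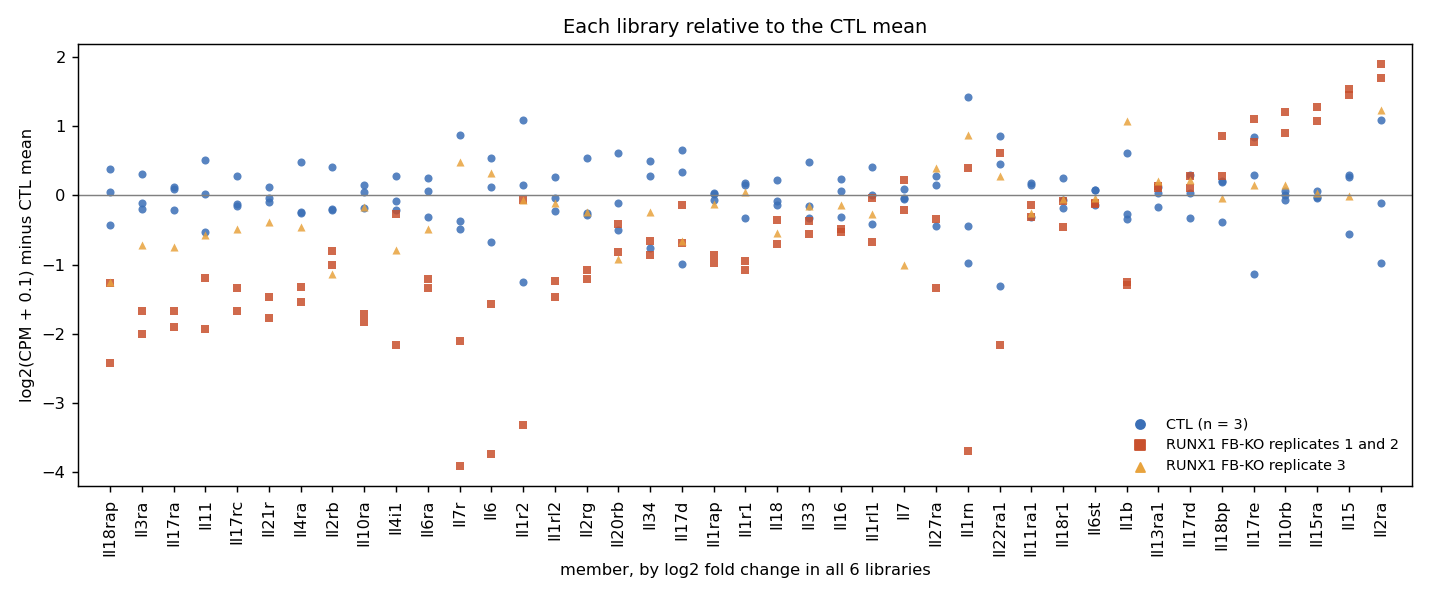
Each library's log2(CPM + 0.1) minus the CTL mean for the 41 compared members, ordered by log2 fold change, with circles for CTL, squares for RUNX1 FB-KO replicates 1 and 2 and triangles for RUNX1 FB-KO replicate 3. The squares lie below all circles for 21 members and above all for 5, while the triangle lies among the circles for 22.

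**Figure D3:**
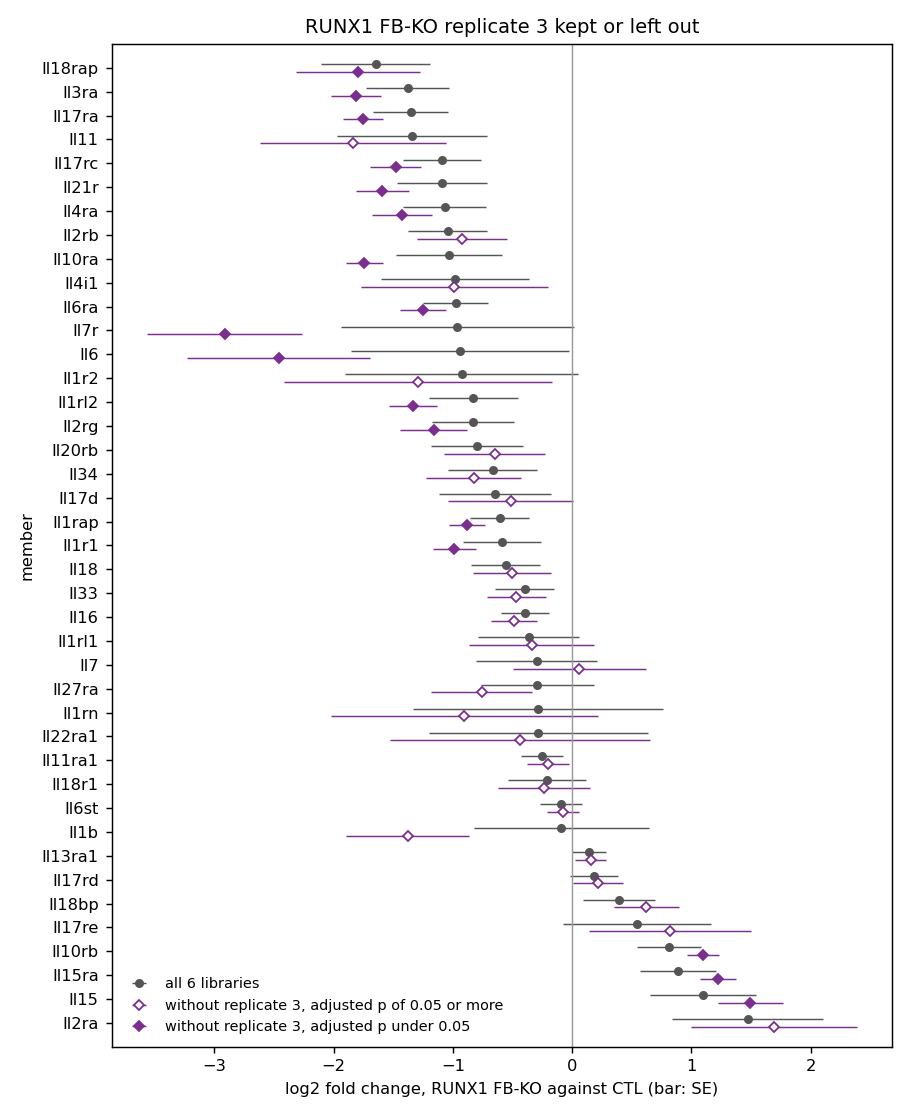
Log2 fold change of each compared member, RUNX1 FB-KO against CTL, with its standard error as a bar, from all 6 libraries (grey circles) and without RUNX1 FB-KO replicate 3 (diamonds, filled where the edgeR adjusted p is under 0.05). Il7r moves from -0.96 to -2.91 and Il6 from -0.94 to -2.46 when that library is left out, and 17 of the 41 diamonds are filled.

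No ligand or antagonist of the IL-1 family passed the threshold with or without RUNX1 FB-KO replicate 3, and several had their extreme values in single libraries. Il1b, the main inflammatory IL-1 of macrophages, was at 3.95, 2.10 and 1.99 CPM in CTL replicates 1, 2 and 3 against 0.981, 1.01 and 5.46 CPM in RUNX1 FB-KO replicates 1, 2 and 3. Its highest and lowest libraries both came from the knockout, and on the log2 scale it differed by -0.09 (SE 0.73, edgeR adjusted p = 0.937). Il1rn, the secreted IL-1 receptor antagonist, ran from 2.29 to 12.5 CPM in CTL against 0.262 to 8.47 CPM in the knockout, and Il1r2, a decoy receptor that binds IL-1 without signalling, from 0.596 to 3.42 CPM and from 0.065 to 1.48 CPM. For both of these the groups overlapped and the highest library was CTL replicate 1. The neutrophil marker sum, 52.7 CPM in CTL replicate 1 and 7.59 CPM in RUNX1 FB-KO replicate 1, was highest and lowest in the same libraries as Il1rn, and its part was not tested.

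Il33 was at 33.1, 51.6 and 29.1 CPM in CTL replicates 1, 2 and 3 against 24.9, 28.3 and 33.1 CPM in the knockout, with overlapping groups (log2 fold change -0.40, SE 0.25, edgeR adjusted p = 0.278). CTL replicate 2 was the highest library, and without it the log2 fold change was -0.11. Its receptor Il1rl1, also called ST2, was rare, at 1.24 to 2.27 CPM in CTL against 1.01 to 1.64 CPM in the knockout. Il18 was at 3.999, 4.95 and 3.83 CPM in CTL against 2.55, 3.28 and 2.86 CPM in the knockout, where every library was below CTL (-0.56, SE 0.29, edgeR adjusted p = 0.212). Il18bp, the binding protein that neutralises IL-18, was at 9.60, 9.68 and 6.41 CPM in CTL against 15.4, 10.2 and 8.16 CPM in the knockout, with overlap (0.39, SE 0.30, edgeR adjusted p = 0.376).

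The balance of inhibitor to ligand or receptor was examined within each library, in TPM. Il18bp to Il18 was 1.11, 1.07 and 0.839 in CTL against 2.85, 1.28 and 1.13 in the knockout, so that all 3 knockout ratios were higher. The mean log2 ratio differed by 0.69 (exact permutation test, two-sided, p = 0.1, the smallest that 3 against 3 allows, and 0.3 adjusted over 3 ratios). RUNX1 FB-KO replicate 1 had the highest ratio, and without it the difference was 0.28. Il1rn to Il1b was 1.75, 1.43 and 0.916 in CTL against 0.171, 3.65 and 1.04 in the knockout, where the lowest and highest ratios stood (log2 difference -0.60, exact permutation p = 0.8). Il1r2 to Il1r1 was at 0.0362 to 0.118 in CTL against 0.00652 to 0.117 in the knockout (log2 difference -0.996, exact permutation p = 0.6).

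Of the 6 compared receptor chains of the IL-1 family, 4 (Il1r1, Il1rl2, Il1rap and Il18rap) lay below every CTL library in RUNX1 FB-KO replicates 1 and 2, against 36.6% of all genes, and Il18r1 and Il1rl1 did not. Il1r1 was at 114, 117 and 82.5 CPM in CTL against 53.4, 49.1 and 106 CPM in the knockout, and Il1rl2, the receptor of the IL-36 cytokines, at 30.0, 24.3 and 21.2 CPM and at 8.90, 10.45 and 23.0 CPM. In both, RUNX1 FB-KO replicate 3 was inside the CTL range and the other knockout libraries were below it. Il1rap, the accessory chain that IL-1, IL-33 and IL-36 receptors share, was at 21.7, 23.3 and 23.1 CPM in CTL against 11.5, 12.4 and 20.7 CPM in the knockout, with all of the latter below CTL. Their log2 fold changes were -0.59, -0.83 and -0.61 (edgeR adjusted p = 0.239, 0.170 and 0.147 with Benjamini-Hochberg adjustment). Without RUNX1 FB-KO replicate 3 they were -0.99, -1.34 and -0.88 (edgeR adjusted p = 0.00355, 0.0016 and 0.00263). For IL-18, the accessory chain Il18rap was at 4.93, 3.88 and 2.78 CPM in CTL against 1.505, 0.624 and 1.53 CPM in the knockout, below CTL in every library (-1.65, SE 0.46, edgeR adjusted p = 0.083, and -1.80, edgeR adjusted p = 0.0249, without RUNX1 FB-KO replicate 3). Il18r1, the binding chain of the same receptor, was at 2.39 to 3.24 CPM in CTL against 1.95 to 2.60 CPM in the knockout (-0.21, SE 0.33, edgeR adjusted p = 0.668). The T and NK cell marker sum given above was also lower in all 3 knockout libraries, and its part was not tested.

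Il17ra had the smallest p of the compared members. It encodes the chain common to the IL-17 receptors and was at 53.9, 42.8 and 53.0 CPM in CTL replicates 1, 2 and 3 against 13.2, 15.5 and 29.6 CPM in RUNX1 FB-KO replicates 1, 2 and 3. RUNX1 FB-KO replicate 3 lay between the other knockout libraries and CTL, and the groups did not overlap. The fitted log2 fold change came to -1.35 (SE 0.31, edgeR adjusted p = 0.068), and -1.75 (SE 0.17, edgeR adjusted p = 0.000229) without that library. With no filter on low counts the adjusted p over all libraries was 0.0444 by edgeR, and with the filter it was 0.0023 by DESeq2. These values are for the gene sum. In each library 66.4% to 78.7% of Il17ra reads were assigned to Il17ra-203, a retained-intron transcript with 0 coding bases. Il17ra-201, which codes for 864 residues, had 304, 273 and 183 estimated reads in CTL against 48.3, 59.2 and 165 in the knockout, before scaling. That form was not tested on its own. Il17rc, the partner of Il17ra for IL-17A and IL-17F, was at 21.3, 21.8 and 28.6 CPM in CTL against 9.29, 7.33 and 16.8 CPM in the knockout, again with no overlap (-1.09, SE 0.33, edgeR adjusted p = 0.092, and -1.48, edgeR adjusted p = 0.00139, without RUNX1 FB-KO replicate 3). Il17rd, an IL-17 receptor family member known as an inhibitor of fibroblast growth factor signalling, was at 11.8 to 18.1 CPM in CTL against 15.9 to 18.0 CPM in the knockout, and Il17re, which binds IL-17C, at 0.400 to 1.87 CPM and 1.12 to 2.26 CPM. Both overlapped between groups. Of the IL-17 ligands, Il17a had 0 reads, and Il17d, the single compared ligand of the family, was at 2.13, 5.53 and 6.91 CPM in CTL against 3.93, 2.65 and 2.70 CPM in the knockout, with overlap.

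Il3ra, the binding chain for IL-3 on myeloid and mast cells, was at 42.5, 30.1 and 31.7 CPM in CTL against 10.7, 8.50 and 20.8 CPM in the knockout. All knockout libraries lay below CTL, and the fitted log2 fold change came to -1.38 (SE 0.35, edgeR adjusted p = 0.073), or -1.81 (SE 0.21, edgeR adjusted p = 0.000537) without RUNX1 FB-KO replicate 3. The ligand Il3 had 0 reads in every library. Csf2rb, the beta common chain with which Il3ra pairs, was at 83.7, 46.8 and 49.0 CPM in CTL against 12.7, 19.0 and 39.8 CPM in the knockout, also without overlap (-1.32, SE 0.45, edgeR adjusted p = 0.110, and -1.88, edgeR adjusted p = 0.00249, without RUNX1 FB-KO replicate 3). For Csf2rb2, listed with it among the partner chains, the groups overlapped. It was at 45.8, 24.8 and 24.0 CPM in CTL against 7.39, 11.9 and 24.7 CPM in the knockout (-1.10, SE 0.47, edgeR adjusted p = 0.157). Without RUNX1 FB-KO replicate 3 it was -1.67 (edgeR adjusted p = 0.00721). Sequence shared between Csf2rb and Csf2rb2 was not examined. The macrophage marker sum was lower in RUNX1 FB-KO replicates 1 and 2 and within the CTL range in replicate 3. Of its 12 markers, 6 were below CTL in every knockout library (against 18.8% of all genes), as were Il3ra and Csf2rb. The part of macrophage number was not tested. The sum of 10 mast cell and basophil markers was 32.4 to 37.2 CPM in CTL against 21.5, 32.9 and 28.9 CPM in the knockout, with Fcer1a, Ms4a2 and Mcpt8 each under 0.1 CPM on average.

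Il4ra, the chain through which IL-4 and IL-13 signal, was at 179, 108 and 107 CPM in CTL against 43.7, 51.1 and 93.1 CPM in the knockout. The highest value was that of CTL replicate 1, and no knockout library reached the lowest CTL value (-1.07, SE 0.35, edgeR adjusted p = 0.104). Without RUNX1 FB-KO replicate 3 it was -1.43 (SE 0.25, edgeR adjusted p = 0.00332). These values are for the gene sum. In each library 58.9% to 66.5% of Il4ra reads were assigned to Il4ra-205, annotated as nonsense-mediated decay with 230 coded residues. Il4ra-201, which codes for 810 residues, had 705 to 1390.2 estimated reads in CTL, before scaling. RUNX1 FB-KO replicate 3 lay inside that range at 728.6, and replicates 1 and 2 had at most 228. The sum therefore does not show that this form, which was not tested, was lower in every knockout library. Il13ra1, a partner of Il4ra, was at 88.2, 83.2 and 72.2 CPM in CTL against 87.0, 88.6 and 93.1 CPM in the knockout. The groups overlapped, and the log2 fold change was 0.14 (SE 0.14), whose sign turned when libraries were scaled by size alone (-0.31). Of the ligands, Il13 had 0 reads and Il4 was below 0.5 CPM.

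The gamma chain family held both lower and higher members. Il2rg, the gamma chain itself, was at 37.4, 21.6 and 21.1 CPM in CTL against 11.1, 12.1 and 21.8 CPM in the knockout, and RUNX1 FB-KO replicate 3 lay inside the CTL range (-0.83, SE 0.35, edgeR adjusted p = 0.151, and -1.16, edgeR adjusted p = 0.0126, without it). Of its 31-base words 28.7% are shared with Gm20489, a gene to which at most 15 reads were assigned in any library. Il21r was at 14.0, 12.0 and 12.5 CPM in CTL against 4.58, 3.67 and 9.74 CPM in the knockout, and Il2rb, the signalling chain of the IL-2 and IL-15 receptors on lymphocytes, at 3.51, 5.40 and 3.48 CPM and at 1.96, 2.26 and 1.79 CPM. Neither gene's groups overlapped (-1.09 and -1.04, edgeR adjusted p = 0.113 and 0.101). Without RUNX1 FB-KO replicate 3 they were -1.59 and -0.92 (edgeR adjusted p = 0.00113 and 0.0813). Il2rb was at least as low in RUNX1 FB-KO replicate 3 as in the other knockout libraries. Il7r, a receptor of lymphocytes and some macrophages, was at 33.3, 14.0 and 12.9 CPM in CTL against 1.11, 4.135 and 25.4 CPM in the knockout. RUNX1 FB-KO replicate 3 was inside the CTL range, and without it the log2 fold change went from -0.96 (SE 0.98, edgeR adjusted p = 0.497) to -2.91 (SE 0.65, edgeR adjusted p = 0.00891).

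Il15 and its receptor Il15ra were higher in the same libraries. IL-15 is known to be carried to the cell surface by Il15ra and shown there to lymphocytes. Il15 was at 5.47, 9.77 and 9.89 CPM in CTL against 22.3, 23.6 and 8.01 CPM in the knockout, and Il15ra at 11.4, 11.3 and 12.1 CPM and at 24.6, 28.2 and 11.9 CPM. RUNX1 FB-KO replicates 1 and 2 were above every CTL library for both genes and RUNX1 FB-KO replicate 3 was inside the CTL range. Most Il15ra reads were assigned to transcripts with shorter coding sequences or none. Il15ra-201, which codes for 263 residues, had 0, 47.4 and 14.7 estimated reads in CTL against 0, 0 and 23.4 in the knockout. The sum therefore does not show that this form was higher. For the gene sums of Il15 and Il15ra the fits gave the following. The log2 fold changes were 1.10 (SE 0.44) and 0.89 (SE 0.32), with edgeR adjusted p = 0.144 and 0.119, and without RUNX1 FB-KO replicate 3 they were 1.495 (SE 0.27) and 1.23 (SE 0.15), with edgeR adjusted p = 0.00355 and 0.000663. The cardiomyocyte marker sum was highest in the same 2 libraries, and its part was not tested. Il2ra, the chain that gives the IL-2 receptor its high affinity, was at 0.622, 1.56 and 0.298 CPM in CTL against 2.42, 2.81 and 1.73 CPM in the knockout. All 3 knockout libraries were above CTL, on 6 to 37 reads per library (1.47, SE 0.63, edgeR adjusted p = 0.159, and 1.69, edgeR adjusted p = 0.0839, without RUNX1 FB-KO replicate 3). Il7, a ligand of the family made by stromal cells, was at 0.889, 0.892 and 0.994 CPM in CTL against 0.785, 1.09 and 0.408 CPM in the knockout, with overlap.

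In the IL-6 family the groups lay apart for the ligand-binding chain Il6ra and overlapped for the shared chain Il6st. Il6ra, which binds IL-6, was at 49.0, 33.2 and 43.1 CPM in CTL against 16.2, 17.9 and 29.5 CPM in the knockout, without overlap (-0.98, SE 0.27, edgeR adjusted p = 0.083). Without RUNX1 FB-KO replicate 3 it was -1.25 (SE 0.19, edgeR adjusted p = 0.00173). Il6st was at 324, 324 and 280 CPM in CTL against 284, 286 and 301 CPM in the knockout, and every knockout library lay inside the CTL range (-0.09, SE 0.18, edgeR adjusted p = 0.725). This depends on the scaling for library composition. Scaled by library size alone, Il6st was at -0.55 (SE 0.24, edgeR adjusted p = 0.138), where the median of all genes was -0.52. The difference between the fold changes of Il6ra and Il6st was not tested. Il11ra1 was at 69.3, 97.1 and 95.3 CPM in CTL against 69.3, 77.9 and 72.5 CPM in the knockout (-0.25, SE 0.18), and Il27ra at 3.42 to 5.71 CPM and 1.79 to 6.17 CPM. Of the ligands, Il6 was at 4.89, 2.05 and 3.63 CPM in CTL against 1.05, 0.156 and 4.18 CPM in the knockout, with RUNX1 FB-KO replicate 3 inside the CTL range (-0.94, SE 0.91, edgeR adjusted p = 0.479, and -2.46, edgeR adjusted p = 0.0332, without it). In RUNX1 FB-KO replicates 1 and 2 these values rest on 16 and 2 reads. Il11 was at 1.29, 0.580 and 0.894 CPM in CTL against 0.327, 0.156 and 0.561 CPM in the knockout, on 2 to 29 reads per library, with RUNX1 FB-KO replicate 3 just under the lowest CTL value.

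In the IL-10 family the 2 chains of the IL-10 receptor went opposite ways in RUNX1 FB-KO replicates 1 and 2. Il10ra, the binding chain found on leukocytes, was at 55.9, 47.6 and 60.0 CPM in CTL against 16.4, 15.2 and 48.0 CPM in the knockout, and Il10rb, a chain known in many cell types, at 77.6, 74.3 and 70.8 CPM and at 139, 170 and 81.9 CPM. Il10rb was above CTL in every knockout library, whereas RUNX1 FB-KO replicate 3 was inside the CTL range for Il10ra. For Il10rb that separation of the groups depends on the scaling for library composition. The log2 fold changes were -1.03 (SE 0.44) and 0.81 (SE 0.27), with edgeR adjusted p = 0.158 and 0.107, and without RUNX1 FB-KO replicate 3 they were -1.74 (SE 0.15) and 1.10 (SE 0.13), with edgeR adjusted p = 0.000171 and 0.000655. With library size as the only scaling, Il10rb stood at 0.28 (SE 0.18), and its adjusted p by edgeR came to 0.261. The median of all genes was then -0.52. Of the 31-base words of Il10rb, 14.9% are shared, mainly with Gm21970, to which at most 7 reads were assigned. Il20rb was at 3.26 to 7.15 CPM in CTL against 2.40 to 3.47 CPM in the knockout, and Il22ra1 at 0.222 to 1.34 CPM and 0.078 to 1.11 CPM. Both overlapped. Il10 itself stayed under 0.5 CPM, with at most 7 reads in a library.

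**Figure D4:**
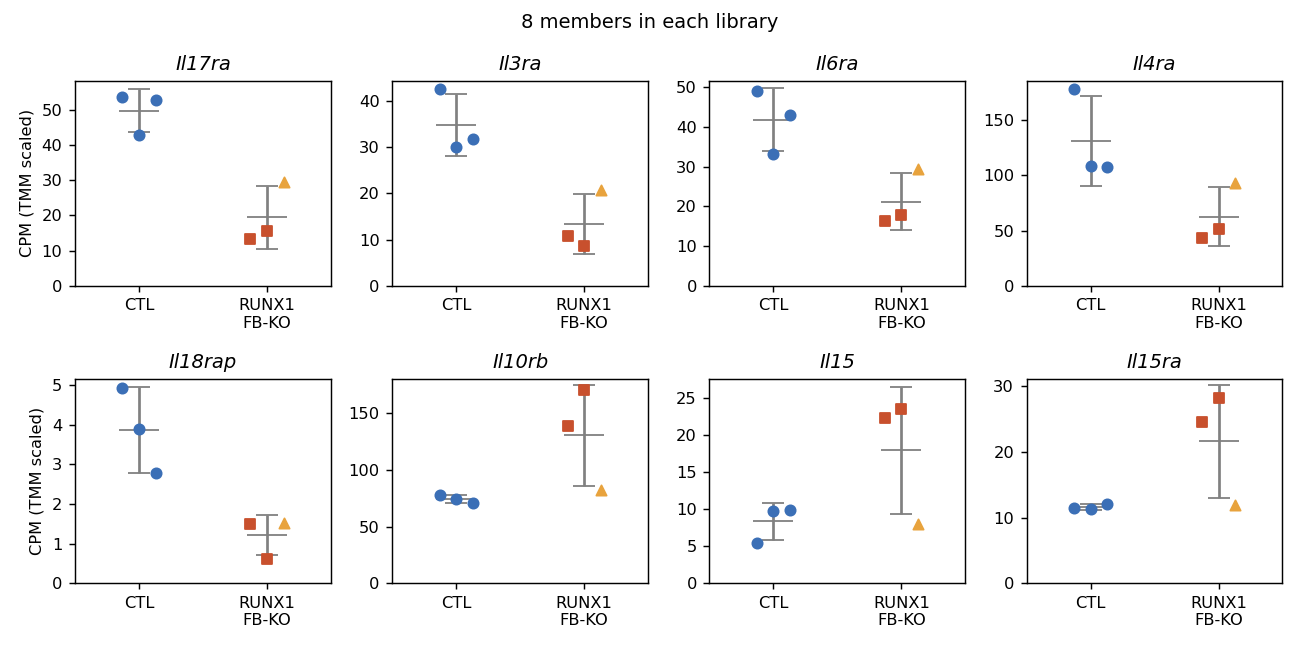
CPM of 8 members on axes that start at 0, with 1 symbol per library (circles CTL, squares RUNX1 FB-KO replicates 1 and 2, triangles RUNX1 FB-KO replicate 3), the mean as a line and the SD as bars (n = 3 each). Il17ra, Il3ra, Il6ra, Il4ra and Il18rap are lower in all 3 knockout libraries. Il10rb is higher in all 3, which depends on the scaling for library composition. Il15 and Il15ra are higher in replicates 1 and 2 with replicate 3 in the CTL range.

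The remaining members were the ligands Il16 and Il34 and the enzyme Il4i1. Il16, a chemoattractant of CD4 cells, was at 18.4, 27.0 and 24.0 CPM in CTL against 15.8, 16.2 and 20.7 CPM in the knockout. It overlapped between groups, and 15.3% of its exon bases overlap Stard5 on the opposite strand, from which its reads cannot be told apart unless strand was used in counting. Il34, a ligand of the macrophage receptor Csf1r, was at 4.84, 10.1 and 11.7 CPM in CTL against 4.51, 5.23 and 6.99 CPM in the knockout, with overlap. Il4i1, an amino acid oxidase of myeloid cells, was at 0.889, 0.981 and 1.29 CPM and at 0.851, 0.156 and 0.561 CPM. Its reads are uncertain, since 80.5% of its 31-base words are shared with other genes, mainly with Tbc1d17 (78.9%), which had 565 to 949 reads per library. Below the minimum of 0.5 CPM, Il12rb1, a chain of the IL-12 and IL-23 receptors, was at 0.933, 0.714 and 0.596 CPM in CTL against 0.131, 0.156 and 0 CPM in the knockout, where it had 2, 2 and 0 reads (-3.002, SE 0.87, edgeR adjusted p = 0.088).

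The partner chains and signalling genes of these receptors were read from the same fits. Over all genes, 18.8% were lower and 20.2% higher without overlap, and 22.5% were called lower and 25.1% higher without RUNX1 FB-KO replicate 3. Of 14 partner chains and related cytokines, the groups did not overlap for 4, all lower (28.6%), and 7 were called lower (50%) and 1 higher (7.14%) without that library. With Csf2rb, the smallest p was that of Clcf1, a cytokine that signals through gp130, at 12.2, 9.99 and 13.1 CPM in CTL against 3.60, 3.20 and 6.17 CPM in the knockout (-1.43, SE 0.31, edgeR adjusted p = 0.068, and -1.75, edgeR adjusted p = 0.00112, without RUNX1 FB-KO replicate 3). Of 16 Janus kinases, STATs and inhibitors, 4 were lower (25%) and 2 higher (12.5%) without overlap, and 3 were called lower (18.8%) and 2 higher (12.5%) without RUNX1 FB-KO replicate 3, shares near or below those of all genes. Cish, an inhibitor that STAT5 is known to induce, was at 42.9, 28.3 and 29.3 CPM in CTL against 101, 124 and 54.0 CPM in the knockout, above CTL in each library (1.47, SE 0.33, edgeR adjusted p = 0.068, and 1.79, edgeR adjusted p = 0.000503, without RUNX1 FB-KO replicate 3). Pias3, an inhibitor of STAT3, was at 32.7, 29.8 and 33.2 CPM and at 18.6, 20.6 and 25.3 CPM (-0.57, SE 0.17, edgeR adjusted p = 0.088, and -0.66, edgeR adjusted p = 0.006, without RUNX1 FB-KO replicate 3).

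Of 13 adaptors of the IL-1 receptor and of NF-kB, 3 were lower (23.1%) and 2 higher (15.4%) without overlap, against 18.8% and 20.2% of all genes. Without RUNX1 FB-KO replicate 3, 5 were called lower (38.5%) and 3 higher (23.1%), against 22.5% and 25.1%. Traf3ip2, the IL-17 receptor adaptor, was at 8.31, 10.2 and 9.14 CPM in CTL against 5.89, 5.77 and 5.66 CPM in the knockout, where RUNX1 FB-KO replicate 3 was as low as the others (-0.67, SE 0.20, edgeR adjusted p = 0.094, and -0.62, edgeR adjusted p = 0.0522, without it). Irak3, an inhibitor of IL-1 receptor signalling, was at 17.3 to 20.3 CPM and 12.4 to 16.02 CPM. Of 8 inflammasome genes, which process IL-1 beta and IL-18, 6 were lower without overlap (75%, against 18.8% of all genes) and 7 were called lower without RUNX1 FB-KO replicate 3 (87.5%, against 22.5%). The macrophage marker sum given above was below CTL in RUNX1 FB-KO replicates 1 and 2, and its part was not tested. Gsdmd, which forms the pore through which IL-1 beta leaves the cell, was at 28.2, 26.4 and 25.3 CPM in CTL against 15.4, 12.0 and 18.8 CPM in the knockout (-0.78, SE 0.20, edgeR adjusted p = 0.073, and -0.91, edgeR adjusted p = 0.00348, without RUNX1 FB-KO replicate 3), and the sensor Nlrp3 at 8.58, 4.73 and 5.52 CPM and 2.22, 2.50 and 3.98 CPM (-1.11, SE 0.37, edgeR adjusted p = 0.109, and -1.37, edgeR adjusted p = 0.0189, without it).

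The groups overlapped in the summed level of Il6st in CPM, which depends on the scaling, while the division of its reads between 2 transcripts lay apart. Il6st-203 (GRCm38 chromosome 13, 112464070 to 112510086, 17 exons) ends 3226 bases later than Il6st-201 (112475008 to 112506860, 15 exons), and both code for a protein of 917 residues. Il6st-203 held 53.5%, 54.1% and 54.6% of the gene's reads in CTL replicates 1, 2 and 3, against 34.9%, 32.6% and 50.7% in RUNX1 FB-KO replicates 1, 2 and 3. All knockout shares were below CTL, that of RUNX1 FB-KO replicate 3 by the least. The share of Il6st-201 was 45.7% ± 0.55 in CTL against 60.3% ± 9.81 in the knockout (SD, n = 3 each), a difference of 14.6 percentage points (exact permutation test, two-sided, p = 0.1, the smallest that 3 against 3 allows, and 0.814 adjusted over 19 members' main transcripts). Of 53 genes with a like pair of transcripts (ends at least 1000 bases apart, each with 20% or more of at least 500 reads), the share of the one with the later end was lower without overlap in 11 (20.8%) and higher in 5 (9.43%). The median difference over the 53 genes was -1.54 percentage points, and 3 genes, Il6st among them, had a difference at least as low as the -14.7 of Il6st-203. These shares are Salmon's estimates for transcripts that overlap over most of their length.

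**Figure D5:**
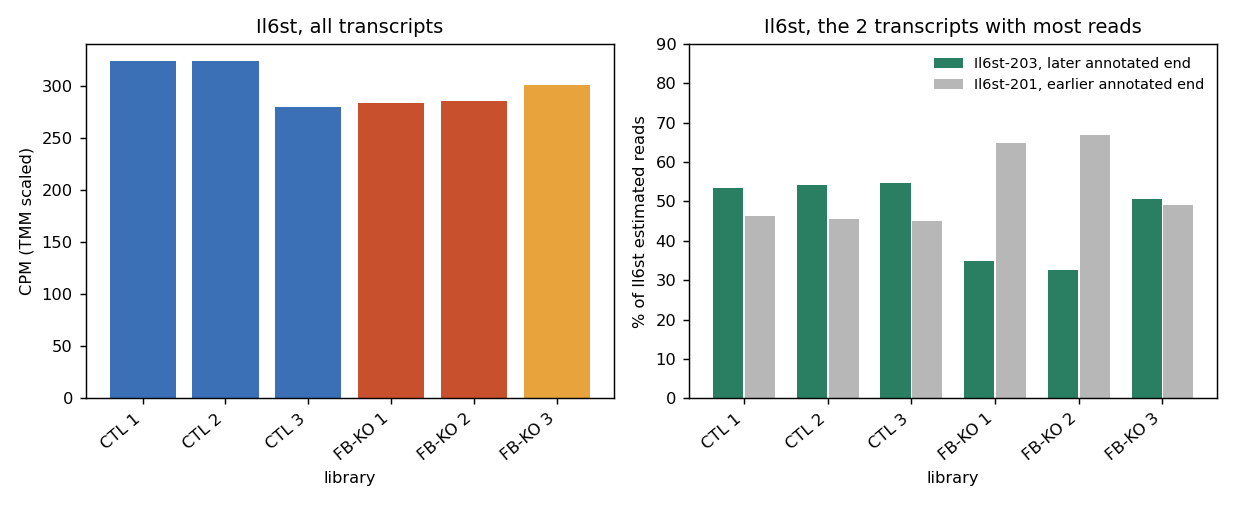
Left, the level of Il6st in each library in CPM; right, the share of its estimated reads in Il6st-203 and Il6st-201, in percent, with 1 bar per library and transcript. The level is 280 to 324 CPM in CTL and 284 to 301 CPM in the knockout, and Il6st-203 holds 53.5% to 54.6% in CTL, 34.9% and 32.6% in RUNX1 FB-KO replicates 1 and 2 and 50.7% in replicate 3.

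For 2 receptors of the IL-1 family the tables separate soluble from membrane forms. Il1rl1 is known to make a secreted decoy of ST2 and a membrane receptor, annotated with 337 and 567 residues. The shorter form held 30.03%, 37.7% and 64.6% of the reads in CTL and 5.04%, 0% and 30.7% in the knockout (exact permutation test, two-sided, p = 0.2), but on 13 to 51 reads per library, of which the shorter form had at most 16.2. For Il1rap, transcript Il1rap-201, which codes for the membrane chain of 570 residues, held 97.0% ± 1.24 of reads in CTL and 95.2% ± 2.51 in the knockout (SD, n = 3 each; exact permutation p = 0.3), and the transcript for the shorter protein of 360 residues held 0.493% to 5.70%.

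RUNX1 is known to bind the letters TGTGGT, and less often TGCGGT. Both were searched on either strand in the windows of 300 bases (250 before to 50 after each gene's start) that RefSeq gives for GRCm38.p6. Of 32851 such windows, 16.76% held TGTGGT and 6.453% held TGCGGT. The 33 compared members with an entry had 45 windows, of which 11 (24.44%), from 11 genes, held TGTGGT, and 1, that of Il2ra, held TGCGGT. The 11 genes were Il11ra1, Il16, Il18, Il18bp, Il18r1, Il18rap, Il1rl1, Il1rl2, Il21r, Il2rg and Il7r. Members without overlap between groups were found with TGTGGT (Il18rap, Il21r and Il18), without either match (Il3ra, Il4ra, Il6ra, Il17rc, Il1rap, Il11 and Il4i1) and, for Il2ra, with TGCGGT. A match describes these letters and is not a site, and no data on binding were used here.

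The windows of 4 receptors are shown as examples, with the match in capitals (TGTGGT, or ACCACA where it lies on the other strand). Matches are more frequent among these examples than among all member windows, of which 11 of 45 held TGTGGT. Il7r is shown although its groups overlapped with all libraries. The first base of the match is at position 32 in Il18rap, -33 in Il21r and 4 in Il7r, where the gene's start is 1 and the base before it is -1. The window of Il3ra holds no match. They lie in GRCm38.p6 at chr1:40515112-40515411 (plus strand), chr7:125603179-125603478 (plus), chr15:9529827-9530126 (minus) and chr14:14346245-14346544 (plus), and each is written 5′ to 3′ on the strand of its gene.
Il18rap: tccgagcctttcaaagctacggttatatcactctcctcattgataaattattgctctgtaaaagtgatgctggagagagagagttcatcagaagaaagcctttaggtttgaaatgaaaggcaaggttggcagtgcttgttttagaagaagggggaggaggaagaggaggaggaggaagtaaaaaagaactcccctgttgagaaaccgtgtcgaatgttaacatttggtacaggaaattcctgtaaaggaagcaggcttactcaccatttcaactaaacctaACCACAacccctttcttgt
Il21r: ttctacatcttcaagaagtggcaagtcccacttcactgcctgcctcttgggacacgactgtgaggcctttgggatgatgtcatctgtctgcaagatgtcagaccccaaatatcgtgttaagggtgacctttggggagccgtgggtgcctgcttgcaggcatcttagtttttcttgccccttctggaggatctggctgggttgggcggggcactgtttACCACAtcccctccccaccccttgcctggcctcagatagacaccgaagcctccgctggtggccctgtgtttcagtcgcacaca
Il7r: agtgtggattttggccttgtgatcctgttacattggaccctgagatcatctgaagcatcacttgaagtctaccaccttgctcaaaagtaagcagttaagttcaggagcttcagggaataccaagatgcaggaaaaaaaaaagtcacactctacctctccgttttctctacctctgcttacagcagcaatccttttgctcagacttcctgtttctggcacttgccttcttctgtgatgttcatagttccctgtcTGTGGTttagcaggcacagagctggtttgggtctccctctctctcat
Il3ra: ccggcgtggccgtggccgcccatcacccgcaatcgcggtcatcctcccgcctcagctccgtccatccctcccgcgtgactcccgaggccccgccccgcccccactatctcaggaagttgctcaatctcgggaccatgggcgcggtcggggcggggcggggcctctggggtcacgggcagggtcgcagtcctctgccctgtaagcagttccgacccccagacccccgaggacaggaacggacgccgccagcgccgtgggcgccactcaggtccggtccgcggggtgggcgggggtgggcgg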

How the data were processed

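The authors deposited 1 Salmon transcript table per library, whose units are estimated counts and TPM, per the file headers. The authors made the estimated counts by quantifying reads against transcripts, so that reads shared by transcripts are divided between them, per the file headers. Salmon 1.5.2, DESeq2 1.44.0 and the build GRCm38 are named in the submitters' processing notes; the annotation release and the use of strand are not given in the sources used here. Estimated counts were summed over GENCODE M21 genes and rounded. Of 116546 transcripts 569 had no match and held at most 0.102% of reads. TPM was summed per gene as deposited and used only within a library. Groups, replicate numbers and sex came from the labels, and libraries held 16598561 to 19987279 estimated reads.

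All 35498 genes entered filterByExpr, which kept 14237, and were scaled by TMM. The factors were 1.18, 1.16 and 1.21 in CTL replicates 1, 2 and 3 against 0.766, 0.732 and 1.08 in RUNX1 FB-KO replicates 1, 2 and 3. The groups were compared in edgeR 4.0.16 (R 4.3.3) by the quasi-likelihood test with genotype as the single term; p-values were adjusted by Benjamini and Hochberg's method over the 14237 genes, and 0.05 was the threshold. CPM uses the TMM-scaled totals. Standard errors were derived from the size of the log2 fold change and the F statistic. DESeq2 1.42.0 and limma-voom (limma 3.58.1) were alternatives, as were a sex covariate, a block for replicate number, other scalings, no filter, no mitochondrially encoded genes, protein-coding genes only, and each library left out in turn. The fit was also run on simulated counts, drawn independently for each library. They hold no library that departs from its group as RUNX1 FB-KO replicate 3 does, and no result given here rests on that run.

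The members, roles and gene lists were chosen with earlier results of these data known. Sample values are given for the members of each role with the highest TPM, the 6 of smallest p on either side, the 2 genes with the smallest p of each pathway list and the members nearest to 0.5 CPM, and for other members where a family is described, which were chosen after their values were seen. Promoter windows came from RefSeq (GRCm38.p6), in which 33 of the 41 compared members matched by symbol; Il17ra, Il10ra, Il10rb, Il15, Il2rb, Il34, Il27ra and Il7 had no entry. Mitochondrially encoded genes took 5.36% to 7.11% of reads in CTL and 24.5%, 19.6% and 10.4% in RUNX1 FB-KO replicates 1, 2 and 3.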

Additional observations from a re-analysis of the deposited data

How the results depend on the processing

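The number of genes changed was 0 with edgeR and all libraries, where 13.1% of genes were lower and 19.3% higher at an unadjusted p under 0.05. It was 889 with no filter, 3018 with DESeq2, 2787 with DESeq2 without filterByExpr (chosen after seeing the data) and 0 to 6947 when a library was left out, the highest without RUNX1 FB-KO replicate 3. For the 41 members the counts were 0, then 1 (Il17ra), 9, 8 and 0 to 17. With the replicate number as a block 0 genes and 0 members were called; same-numbered libraries deviated together with correlations of -0.05 to 0.11, so the numbers were not taken to pair the mice. Of the 41 members 33 kept the sign of their log2 fold change in each of the 16 alternatives run and 8 did not. Scaling by library size alone moved the median of all genes to -0.52 and turned Il13ra1 (-0.31), Il18bp (-0.11) and Il17rd (-0.27) negative. Sex as a covariate called 0 members, turned Il22ra1 to 0.46 and moved Il1rn from -0.29 to -1.74, Il7r from -0.96 to -2.20, Il1r2 from -0.92 to -2.09 and Il17d from -0.65 to -0.18. With a library left out, the log2 fold change ran from -0.90 to 0.81 for Il1rn, -1.38 to 0.30 for Il1b, -0.76 to 0.047 for Il27ra, -0.64 to 0.059 for Il7 and -0.77 to 0.22 for Il22ra1, and the log2 difference of the ratio from -1.64 to 0.56 for Il1rn to Il1b, 0.28 to 0.94 for Il18bp to Il18 and -1.88 to 0.20 for Il1r2 to Il1r1. At a mean of at least 1 CPM, Il4i1 was not kept, which left 0 members with a role other than ligand, receptor or antagonist. With 3 libraries a group, 13 to 51 reads for Il1rl1, 2 to 29 for Il11 and 2 to 110 for Il6 limit what can be said of the rare members.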
